A study of Homo sapiens with 6 samples.

Results

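A set of 30 p53 pathway genes was followed, out of 16574 genes measured in thyroid cells kept in the flame retardant decabromodiphenyl ether (BDE209) or in its solvent. They were taken by symbol from a list (MDM2, MDM4, GDF15, FAS, TNFRSF10B, SESN1, SESN2, BTG2, GADD45A, TP53I3, TP53INP1, FDXR, XPC, DDB2, ZMAT3, RRM2B, PLK2, PLK3, SPATA18, TIGAR, AEN, CCNG1, PPM1D, POLH, PHLDA3, TRIAP1, EDA2R, SUSD6, PERP and CYFIP2), and all 30 were found by Ensembl identifier. The cells were Nthy-ori 3-1, human thyroid follicular cells immortalised with the SV40 large T antigen and labelled WT. The BDE209 group (3 libraries) had spent 27 days in 2.5 µM BDE209 and the DMSO group (3 libraries) the same 27 days in an equal volume of dimethyl sulfoxide. The labels number the libraries of each group 1 to 3. They give no culture or batch behind a number, so p-values measure the spread between these libraries, which may be technical. A single immortalised line was used.

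The transcription factor p53 is stabilised by DNA damage and other stress, and it switches on genes that halt the cell cycle, repair DNA, tune metabolism or start cell death. Among its targets are its own restraints: MDM2 marks p53 for degradation, MDM4 masks its activating domain, and the phosphatase PPM1D removes damage marks. SV40 large T antigen binds p53 and holds it in a stable complex that activates targets poorly, and it also binds the retinoblastoma proteins. Cell lines made with large T are therefore often described as functionally short of p53. Large T was not measured here.

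Most follicular markers of the labelled cell type were near 0, and its epithelial markers were mixed. Levels are given as FPKM, fragment counts scaled to transcript length and to the size of the library. Of 8 follicular markers, 6 stayed under 1 FPKM in all 6 libraries, among them thyroglobulin (TG), at 0.02 to 0.12, and PAX8, at 0.35 to 0.49. The other 2 were HHEX, at 4.83 to 7.62, and FOXE1, at 0.84 to 1.48. Of 5 epithelial markers, CDH1 was listed at 0 in 5 of 6 libraries, KRT19 read at most 0.08 and EPCAM 1.06 to 1.21, while KRT8 read 5.7 to 9.0 and KRT18 36.19 to 55.92. Vimentin (VIM), a mesenchymal filament, read 6817 to 9207. Follicular markers summed to 6.45 to 8.49 FPKM with DMSO, against 7.26 to 9.65 with BDE209, and mesenchymal markers to 9962 to 14610 and 9175 to 12270. The 2 immune markers measured summed to at most 0.76 and the 4 endothelial ones to at most 3.36. In bulk libraries fewer cells of a type and less RNA per cell cannot be told apart. The part of these markers in the levels of the p53 genes was not tested.

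The files hold no counts, so the depth behind each value is unknown. In genes with 1 transcript, low values times length most often fell near 0.075 FPKM times kilobases in both libraries of replicates 1 and 2. The most common value was 0.095 in BDE209 replicate 3 and 0.115 in DMSO replicate 3. It was read from bins that held 12 to 20 of 55 to 84 genes per library. It is thus only a rough guide to the step between values, which is coarser with fewer fragments. Both libraries numbered 2 stood apart from the rest, and results that rest on them are given with and without them.

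To show part of what p53 recognises at these genes, promoter windows were searched for a 20-base form of the p53 consensus element. This form is a pair of half-sites with no bases between them, and pairs set apart by other bases were not searched for. The windows run from 250 bases before to 50 after each annotated start in RefSeq (GRCh38.p14) and cover 25 of the 30 genes, in 38 windows. The 4 fixed core bases had to match, up to 2 other mismatches were allowed, and since the consensus is its own reverse complement the search covers both strands. An element was found for 4 of the 25 genes, against 0.359% of all genes with a window and 0.285% of all windows. They are printed 5′ to 3′ on the strand of the gene, with 80 further bases around each, because these genes carry the letters of the element beside their start; capitals mark it.
MDM2 (chr12:68808883-68808982, + strand): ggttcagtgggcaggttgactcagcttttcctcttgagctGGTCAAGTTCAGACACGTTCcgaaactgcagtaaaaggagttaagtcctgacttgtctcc
DDB2 (chr11:47214924-47215023, + strand): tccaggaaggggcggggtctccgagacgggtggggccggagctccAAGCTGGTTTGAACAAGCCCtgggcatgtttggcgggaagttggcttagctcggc
FAS (chr10:88991269-88991368, + strand): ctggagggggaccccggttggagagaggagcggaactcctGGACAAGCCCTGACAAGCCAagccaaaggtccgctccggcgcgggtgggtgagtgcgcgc
AEN (chr15:88621266-88621365, + strand): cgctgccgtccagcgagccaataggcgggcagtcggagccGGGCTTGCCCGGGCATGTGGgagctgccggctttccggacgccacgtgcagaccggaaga

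Counted without bases between the half-sites, the DDB2 element had 1 mismatch to the consensus and the other 3 had 2. In the DDB2 stretch the half-site gaacaagccc is also followed, after 1 base, by gggcatgttt. Both match the consensus of a half-site, and such a spaced pair was outside the search. The marked elements of MDM2 and FAS lie before an alternative start of the gene, and that of DDB2 spans one. A match describes letters and no binding, and no match says only that these letters are not in this window. The 4 genes did not share a level or a direction. In DMSO they read 2.29 ± 0.29 (MDM2), 23.4 ± 7.12 (DDB2), 1.59 ± 0.127 (FAS) and 8.85 ± 2.01 FPKM (AEN), each as mean ± SD with n = 3. Their log2 differences in the 3 replicate numbers were all positive for MDM2 and FAS, all negative for AEN and mixed for DDB2, and none passed the test across all genes described below.

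In DMSO the p53 genes spread from near 0 to the 91.4th percentile of all genes. Means over the 3 DMSO libraries exceeded 10 FPKM for 10 genes, lay between 1 and 10 for 12 and fell short of 1 for 8. The median of the 30 was 2.84 FPKM against 4.90 over all 16574 genes, and their median rank lay at the 42.2nd percentile. All 8 repair and metabolic genes passed 1 FPKM, while 7 arrest and death genes did not reach the minimum for testing. The plot of levels by library shows this order within each role.

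**Figure D1:**
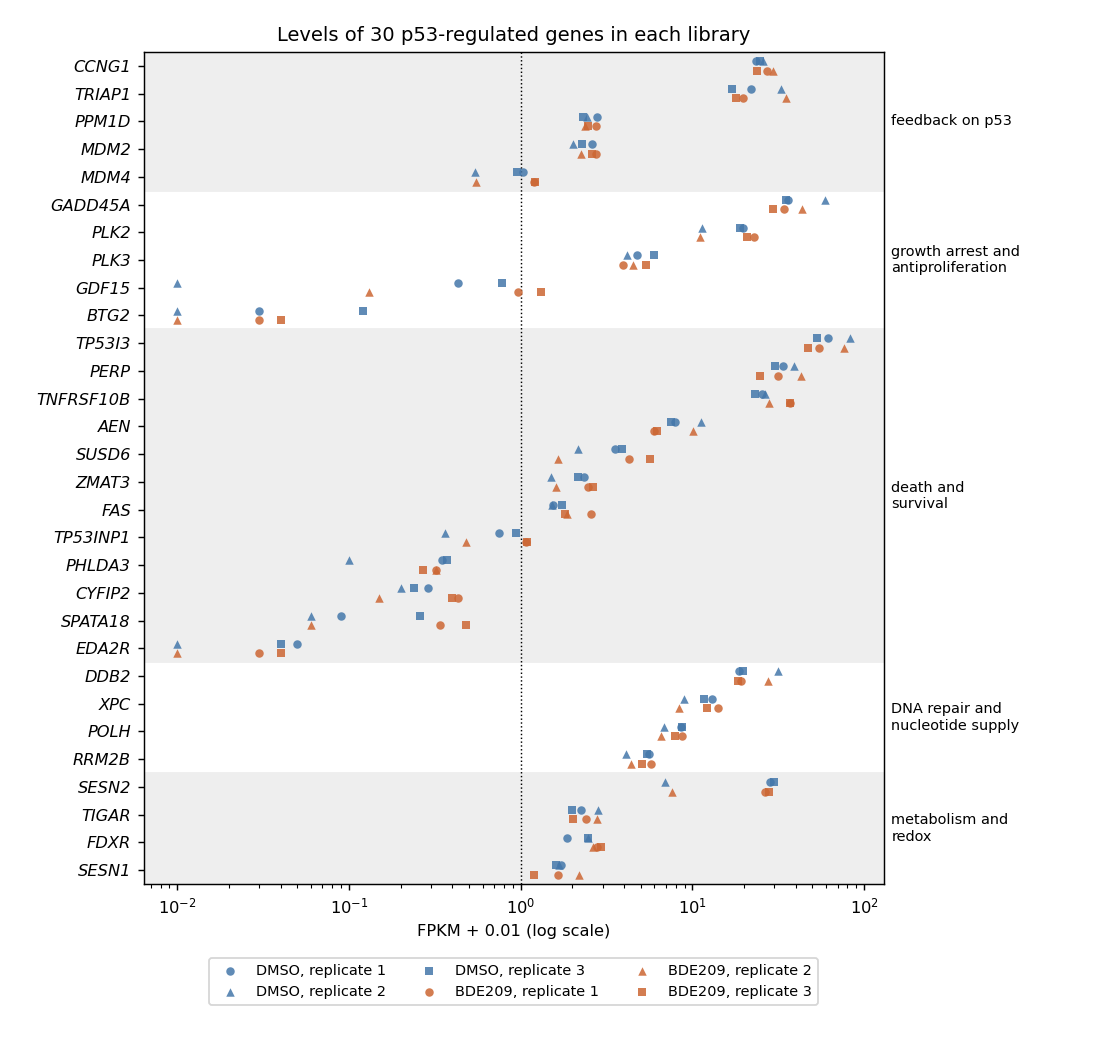
Each point is the FPKM of 1 gene in 1 library, with 0.01 added so that values of 0 can be drawn on the log axis; blue is DMSO, orange BDE209, the marker shape gives the replicate number, and the dotted line marks 1 FPKM. TP53I3 is the highest of the 30 in DMSO and 7 genes stay under the minimum used for testing, and replicate 2 lies apart from replicates 1 and 3 for genes such as SESN2 and DDB2.

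Of the feedback genes, MDM2, MDM4 and PPM1D were low beside CCNG1 and TRIAP1. MDM2, the ubiquitin ligase, read 2.59, 2.01 and 2.27 FPKM in replicates 1, 2 and 3 under DMSO, against 2.74, 2.23 and 2.59 with BDE209. Its values overlapped between the groups, and within each replicate number the BDE209 library was the higher. MDM4, its non-ligase relative, read 1.02, 0.53 and 0.94 with DMSO, against 1.18, 0.54 and 1.20 with BDE209, so that replicate 2 was low in both groups. PPM1D stayed between 2.29 and 2.77 over all 6 libraries. CCNG1, a cyclin that brings a phosphatase to MDM2, was far higher, at 23.45, 25.63 and 24.71 with DMSO, against 27.17, 29.51 and 23.72 with BDE209. TRIAP1, a small mitochondrial survival protein, read 17.08 to 34.87, highest in both replicate 2 libraries.

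Among the arrest genes, GADD45A, which binds PCNA and cyclin-dependent kinase 1, was the most abundant. It read 36.15, 58.85 and 34.84 FPKM with DMSO, against 34.24, 43.73 and 29.44 with BDE209, lower in BDE209 within every number although the groups overlapped. The polo-like kinases PLK2 and PLK3 averaged 16.7 ± 4.65 and 4.97 ± 0.924 in DMSO (SD, n = 3). BTG2, an antiproliferative cofactor and a strongly p53-dependent gene in other cells, read 0.02, 0.00 and 0.11 with DMSO, against 0.02, 0.00 and 0.03 with BDE209. GDF15, a secreted stress cytokine, read 0.42, 0.00 and 0.77 with DMSO, against 0.95, 0.12 and 1.31 with BDE209. GDF15 was thus higher in BDE209 within each number, by 0.46, 0.16 and 0.38 on the log2(FPKM + 1) scale, but its groups overlapped and it stayed under the minimum for testing (exact permutation p = 0.4, two-sided, where 0.1 is the smallest that 3 against 3 allows).

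The death and survival genes held both extremes. TP53I3, a quinone oxidoreductase tied to oxidative death, was the highest p53 gene in DMSO, at the 91.4th percentile of all genes. It read 61.31, 83.14 and 52.84 FPKM with DMSO, against 54.52, 76.05 and 47.01 with BDE209, lower in BDE209 in every number by 0.13 to 0.17 log2 units. PERP, a desmosomal membrane protein, read 33.61, 39.02 and 30.15 with DMSO, against 31.59, 43.04 and 24.87 with BDE209. AEN, a nuclease of apoptotic cells, read 7.88, 11.16 and 7.52 with DMSO, against 5.96, 10.11 and 6.21 with BDE209. It was lower with BDE209 in every number, though the groups overlapped. ZMAT3, an RNA-binding protein that steers splicing, read 2.33, 1.5 and 2.15 with DMSO, against 2.45, 1.59 and 2.64 with BDE209, higher in every number. In 5 death genes the minimum was not reached: EDA2R, a receptor of the TNF family, at 0.00 to 0.04, SPATA18, which acts in mitochondrial quality control, at 0.05 to 0.47, PHLDA3, an AKT inhibitor, at 0.09 to 0.36, CYFIP2 of the actin-regulating WAVE complex at 0.14 to 0.42, and TP53INP1, an autophagy and death cofactor, at 0.35 to 1.08. None of these 5 reached an exact permutation p under 0.4.

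The DNA repair genes were all above the minimum. DDB2 and XPC, which find ultraviolet lesions for nucleotide excision repair, averaged 23.4 ± 7.12 and 11.2 ± 2.09 FPKM in DMSO. The lesion-bypass polymerase POLH averaged 8.01 ± 1.07 and RRM2B, a subunit of ribonucleotide reductase for non-dividing cells, 5.03 ± 0.814. In BDE209 the 4 read 21.7 ± 4.93, 11.5 ± 2.89, 7.71 ± 1.05 and 5.06 ± 0.672, differences within the spread of the libraries. None of the 4 had the same sign in all 3 numbers.

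Of the metabolic and redox genes, SESN2, a leucine sensor that restrains mTORC1, varied the most between libraries. It read 28.19, 6.95 and 29.99 FPKM with DMSO, against 26.33, 7.63 and 28.00 with BDE209, so that both replicate 2 libraries lay far below the other 4. SESN1, its paralogue and the sestrin more closely tied to p53, read only 1.18 to 2.19. TIGAR, a bisphosphatase that slows glycolysis, stayed between 1.97 and 2.81. FDXR, the mitochondrial ferredoxin reductase, read 1.85, 2.46 and 2.45 with DMSO, against 2.79, 2.61 and 2.94 with BDE209, and its groups did not overlap.

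BDE209 was compared with DMSO by limma on log2(FPKM + 1) over the 11223 genes with at least 1 FPKM in 3 or more libraries, which 23 of the 30 passed. At a Benjamini-Hochberg adjusted p under 0.05 no gene was called (0 of 11223, or 0.00%, and 0 of the 23), the smallest adjusted p being 1.00. At an unadjusted p under 0.05 there were 176 genes, and TNFRSF10B was the 1 p53 gene. With the replicate number as a block, limma again called 0 of 11223 (0.00%) and 0 of the 23. There, an unadjusted p under 0.05 was reached by 1847 genes, 4 of them p53 genes, whose lowest adjusted p was 0.231 (AEN). The median log2 difference of the 23 was 0.01, the same as over all 11223 genes.

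Differences taken within each replicate number were mostly small. All 3 stayed within 0.25 log2 units for 15 of the 23 genes, against 64.2% of all genes tested. Their medians were 0.04, 0.05 and 0.02 in replicates 1, 2 and 3, where those of all genes tested were 0.01, 0.02 and -0.0009. BDE209 was higher in all 3 numbers for 6 of the 23 (MDM2, MDM4, FAS, TNFRSF10B, FDXR and ZMAT3), against 21.9% of all genes tested. It was lower in all 3 for 3 (GADD45A, TP53I3 and AEN), against 17.3%. The 3 BDE209 values lay wholly above the DMSO values for FAS, TNFRSF10B and FDXR, against 3.22% of all genes tested, and wholly below for 0 of the 23, against 2.00%.

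**Figure D2:**
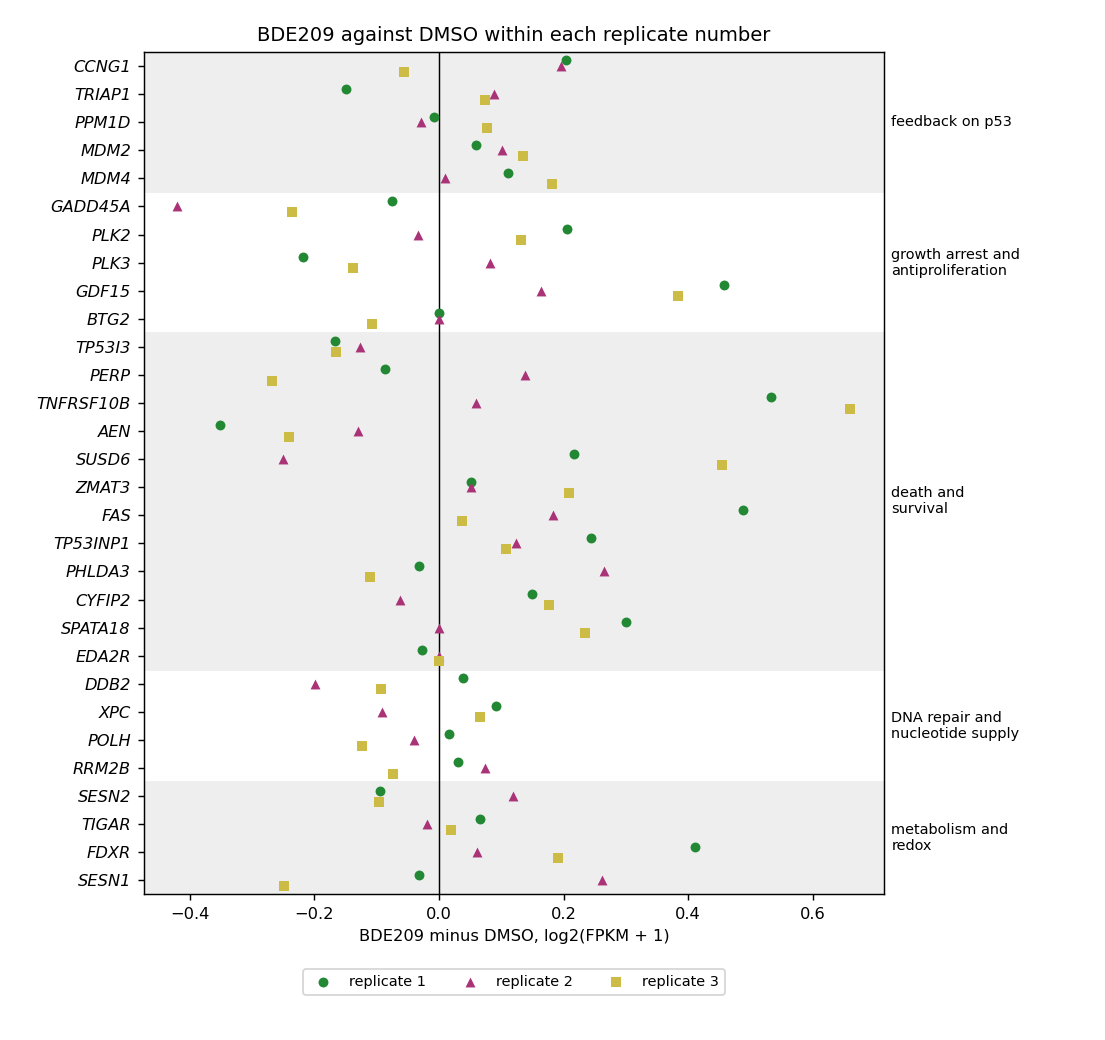
Each point is the log2(FPKM + 1) difference, BDE209 minus DMSO, within 1 replicate number, for 30 genes grouped by role. TNFRSF10B lies furthest to the right in replicates 1 and 3, at 0.53 and 0.66, and near 0 in replicate 2, at 0.06.

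The death receptor TNFRSF10B, which binds the ligand TRAIL and passes on its death signal, carried the clearest difference. It read 25.35, 26.63 and 23.19 FPKM in replicates 1, 2 and 3 under DMSO, against 37.14, 27.80 and 37.23 with BDE209. The groups did not overlap, but the replicate 2 library in BDE209 was close to the DMSO values. Across all 6 libraries the log2 difference was 0.42 (SE 0.155; limma adjusted p = 1.00; exact permutation p = 0.1, the smallest possible). With the replicate number as a block over all 6 the limma adjusted p was 0.235. In replicates 1 and 3 alone the difference was 0.60 (SE 0.0784, limma adjusted p = 0.00704). That fit was chosen with the departure of replicate 2 known, so its p-value is a description and not independent support. The same holds for every other p-value and call from replicates 1 and 3 alone, with or without the block.

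It was the 1 p53 gene of 23 called in those 4 libraries, where 741 of 11101 genes were called, or 6.68%. This is 4.35% of the 23. With the replicate number as a block in those 4 libraries, which leaves 1 residual degree of freedom, limma called 3184 genes, or 28.7%, and 8 of the 23. Higher were FDXR, PLK2, SUSD6 and TNFRSF10B, against 14.4% of all genes, and lower were AEN, GADD45A, PERP and TP53I3, against 14.3%. These 8 went up and down in equal number, as 1599 and 1585 genes did overall.

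The effect in replicate 2 was set against that in the others with a treatment-by-replicate term in limma. It rests on 1 library per group in replicate 2 and 1 residual degree of freedom, and was chosen with the departure of replicate 2 known, so its p-values are given as a description and not as independent support. It called 1153 of 11223 genes, or 10.3%, and 2 of the 23. For TNFRSF10B the effect was 0.54 log2 units smaller in replicate 2 (adjusted p = 0.0048), and for SUSD6, a membrane protein of growth control, it was lower by 0.59 (adjusted p = 0.0405). SUSD6 read 3.52, 2.14 and 3.87 FPKM with DMSO, against 4.25, 1.64 and 5.67 with BDE209, higher in replicates 1 and 3 and lower in replicate 2. Without limma's trend and robust options neither call held (0 of the 23, and 153 genes in all) and without a filter 0 genes were called.

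FAS, the other classical death receptor among the 30, differed mainly in replicate 1. It read 1.53, 1.51 and 1.74 FPKM with DMSO, against 2.55, 1.85 and 1.81 with BDE209. The groups did not overlap, and the difference was widest in replicate 1 (0.49) and least in replicate 3 (0.04). Across the 6 libraries it came to 0.24 (SE 0.141; limma adjusted p = 1.00; exact permutation p = 0.1). FDXR differed by 0.22 (SE 0.133; limma adjusted p = 1.00; exact permutation p = 0.1).

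**Figure D3:**
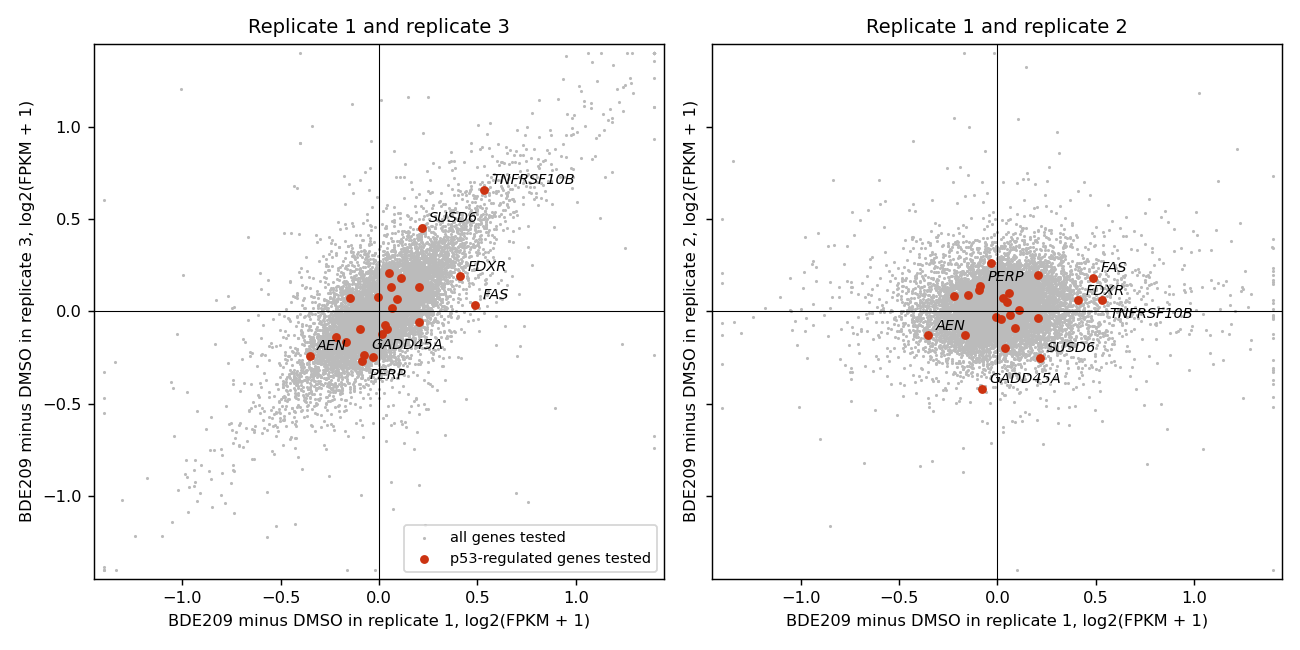
The log2(FPKM + 1) difference, BDE209 minus DMSO, in replicate 1 (horizontal) against replicate 3 (left) and replicate 2 (right), for the 11223 genes tested (grey) and the 23 p53 genes tested (red); values beyond 1.4 are drawn at 1.4. The red points follow the diagonal on the left (r = 0.71 across the 23 genes) and not on the right (r = 0.20), as the grey points do (r = 0.73 and 0.06).

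A list of 30 p53 relatives and regulators, of which 29 were analysed here and 27 passed the minimum, was followed beside the targets. BDE209 was higher in all 3 numbers for 4 of the 27 and lower for 5, against 21.9% and 17.3% of all genes tested. The median log2 differences of the 27 were 0.03, -0.03 and 0.01 in replicates 1, 2 and 3.

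The kinase ATM, which signals DNA breaks to p53, read 6.41, 4.41 and 6.96 FPKM with DMSO, against 8.67, 4.37 and 8.59 with BDE209, short of the threshold in replicates 1 and 3 (limma adjusted p = 0.0701) and past it with the block there (0.00361). The relatives TP63 and TP73 read at most 0.71 and 0.04 FPKM.

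Another list, of 64 further p53 targets, went both ways. Of 56 tested, limma on replicates 1 and 3 alone called 7 higher and 2 lower, against 4.40% and 2.28% of all genes. With the block there, 15 were higher and 9 lower, against 14.4% and 14.3%. The median log2 differences of the 56 were 0.02, 0.03 and -0.03 in replicates 1, 2 and 3. Among those with the smallest p there were DDIT4, FUCA1 and TNFRSF10D.

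DDIT4, a stress brake on mTORC1 that hypoxia also induces, read 138.73, 77.71 and 141.90 FPKM with DMSO, against 227.96, 98.01 and 235.94 with BDE209 (0.72 in replicates 1 and 3, adjusted p = 0.00235). FUCA1, a lysosomal fucosidase, read 3.09, 1.55 and 2.17 with DMSO, against 6.0, 1.43 and 5.69 with BDE209 (0.93, adjusted p = 0.00965).

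TNFRSF10D, the decoy receptor that binds TRAIL without a complete death domain, was lower with BDE209 while TNFRSF10B was higher. It read 171.04, 247.67 and 162.79 FPKM with DMSO, against 120.01, 224.19 and 111.19 with BDE209, lower in every number (-0.53 in replicates 1 and 3, limma adjusted p = 0.0101). TNFRSF10A, the other signalling receptor, read 4.79 to 6.81 over the 6 libraries with no common sign. TNFRSF10C, a lipid-anchored decoy, read at most 0.71. Per length, the decoy TNFRSF10D was thus the most abundant TRAIL receptor in all 6 libraries. The 4 genes are related in sequence, and how shared reads were counted is not given in the sources used here.

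**Figure D4:**
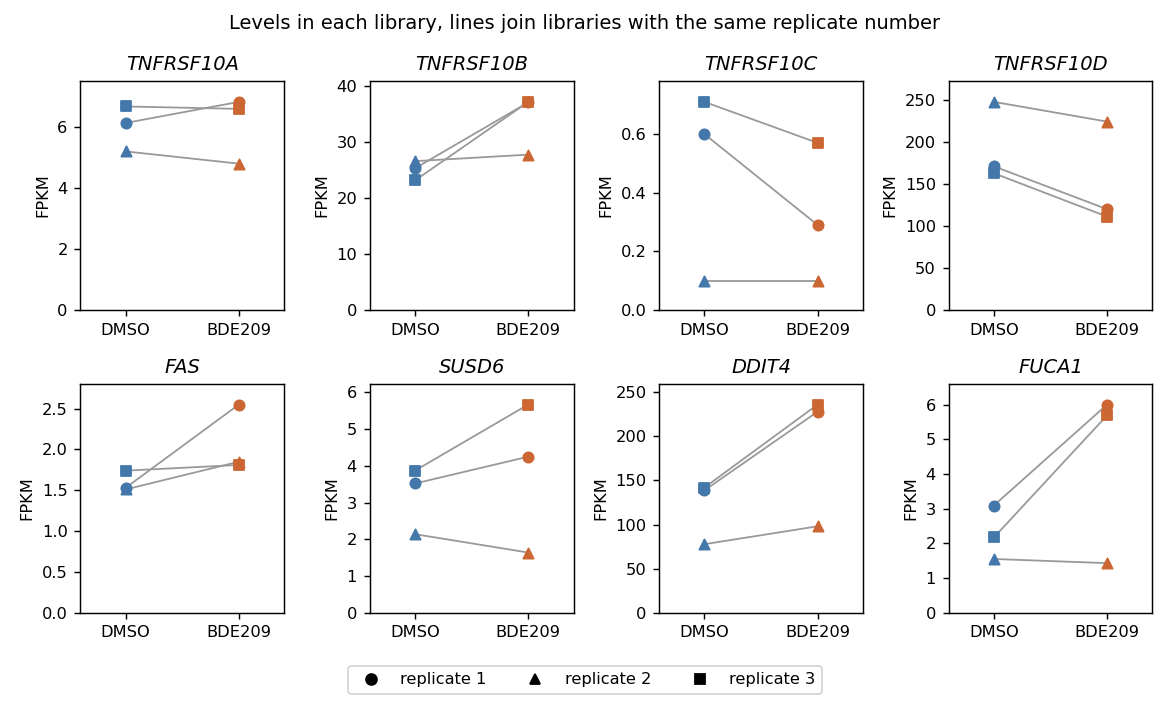
FPKM in each library for the 4 TRAIL receptor genes, FAS, SUSD6, DDIT4 and FUCA1, on linear axes from 0; lines join the DMSO and BDE209 libraries with the same replicate number. TNFRSF10B rises from 25.35 to 37.14 and 23.19 to 37.23 in replicates 1 and 3 and lies at 26.63 and 27.80 in replicate 2; SUSD6 and FUCA1 are higher with BDE209 in replicates 1 and 3 and lower in replicate 2.

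The best-known p53 targets outside the 30 showed no common direction. CDKN1A, the p21 inhibitor of cyclin-dependent kinases, read 7.54, 8.24 and 7.34 FPKM with DMSO, against 7.38, 8.76 and 9.84 with BDE209. BAX, which permeabilises mitochondria, read 87.58 to 148.89 with DMSO, against 92.49 to 138.56 with BDE209. BBC3 (PUMA) and PMAIP1 (NOXA), BH3-only death proteins, read 1.70 to 2.55 and 24.80 to 30.65 with DMSO, against 1.89 to 2.56 and 24.99 to 39.49 with BDE209. All 4 had overlapping groups. Compared between BDE209 and DMSO, limma called none of them over the 6 libraries or in replicates 1 and 3, with or without the block. PMAIP1 differed by 0.36 log2 units in replicate 2, and by -0.0047 and 0.01 in replicates 1 and 3. With the treatment-by-replicate term its effect was larger by 0.35 in replicate 2, which rests on 1 library per group.

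Cell cycle genes listed as repressed by p53 through p21 and the DREAM complex were lower with BDE209 in replicates 1 and 3. Of 20, all tested, 19 were lower in both of those numbers, against 35.1% of all genes tested, and 0 higher, with medians of -0.24, -0.0027 and -0.27 in replicates 1, 2 and 3. Limma on replicates 1 and 3 called 5 lower: CCNA2, CDC20, KIF23, PRC1 and CCNB2, against 2.28% of all genes. With the block 17 were lower, against 14.3%. CDC20, which activates the anaphase ubiquitin ligase, read 279.77, 337.80 and 276.91 FPKM with DMSO, against 222.13, 310.60 and 219.49 with BDE209. CDKN1A differed by -0.03, 0.08 and 0.38 in the same numbers. The part of p53, p21 or large T in these differences was not tested.

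An inflammatory programme that shares targets with p53 was higher in the same libraries. FAS and TNFRSF10B are also induced by NF-kB. Of 15 NF-kB genes tested over the 6 libraries, 11 were called higher in replicates 1 and 3, against 4.40% of all genes, and 0 lower. BIRC3 and CXCL2, among the 15, were under the minimum in replicates 1 and 3 alone and were not fitted there. Median differences of the 15 were 1.28, -0.02 and 1.27 in replicates 1, 2 and 3. The medians of replicates 1 and 3 are those of BIRC3. BIRC3 and CXCL2 passed the minimum only through the BDE209 libraries and DMSO replicate 2, so these medians describe a list partly chosen by high BDE209 values. IL1B, an inflammatory cytokine, read 7.63, 25.31 and 7.05 FPKM with DMSO, against 82.07, 24.56 and 69.57 with BDE209. The 15 genes summed to 157, 166 and, in replicate 2, 1024 FPKM under DMSO, and to 460, 506 and, in replicate 2, 839 with BDE209. The sums lean on few genes. In replicate 2 CXCL8 read 639.87 with DMSO and 517.86 with BDE209, and CCL2 204.0 and 137.47. CCL2 differed by 0.12, -0.57 and -0.61 in replicates 1, 2 and 3. The part of the 15 genes in the higher TNFRSF10B values was not tested.

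SESN2 and GDF15 are also targets of ATF4, the factor of the integrated stress response. Of 12 genes of that list, limma called 0 in replicates 1 and 3, and 3 higher with the block there, against 14.4% of all genes. TRIB3, an AKT-binding pseudokinase, differed by 0.22, 0.46 and 0.29 and PPP1R15A by 0.21, -0.02 and 0.19. In replicate 2 the list was split, with 8 of 12 lower and 4 higher than in the other replicates, and a median shift of -0.78 log2 units, against -0.10 over all genes tested. ATF4 itself (0.30), PPP1R15A (0.31), ATF5 (0.15) and DDIT3 (0.11) were the higher ones. CHAC1, a glutathione-degrading member named after its values were seen, read 13.99 and 15.73 FPKM there and 48.23 to 56.04 in the other libraries.

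Most p53 genes differed more between replicate 2 and the other replicates than between BDE209 and DMSO. The shift of replicate 2, taken as the mean of its 2 libraries minus that of the other 4, was larger than the BDE209 difference for 20 of the 23 genes, against 84.2% of all genes tested. Its median size was 0.41 log2 units for the 23, where the median size of the BDE209 difference was 0.10. SESN2 had the largest, at -1.81, followed by SUSD6 (-0.87), PLK2 (-0.82) and TRIAP1 (0.79). In both groups alike, replicate 2 lay below both other replicates for 9 of the 23, against 45.8% of all genes tested, and above both for 8, against 32.3%.

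**Figure D5:**
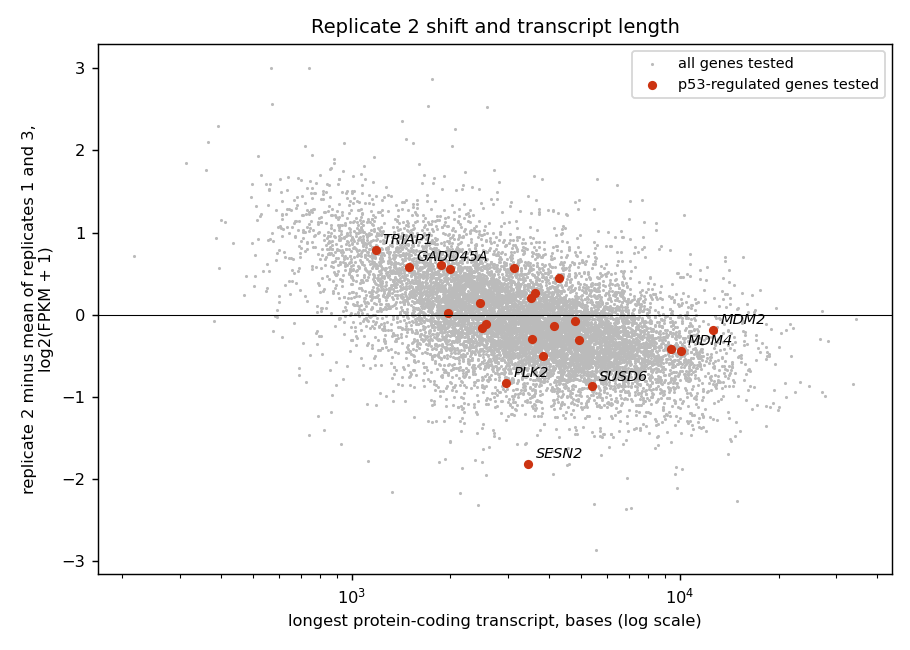
The shift of replicate 2 against replicates 1 and 3 on the log2(FPKM + 1) scale, by the length of each gene's longest protein-coding transcript (log axis), for all genes tested with a length (grey, values beyond 3 drawn at 3) and the 23 p53 genes (red). Long transcripts tend to lie below 0 and short ones above; SESN2 lies at -1.81.

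Transcript length moved with this shift. Across the 23 genes Spearman's rho between the longest protein-coding transcript in GENCODE v29 and the shift was -0.60, and -0.54 across all genes tested. With the median length of a gene's protein-coding transcripts it was weaker, at -0.55 and -0.37. These values are a description over genes that share the same libraries. TRIAP1 and GADD45A, among the shortest, were higher in replicate 2, and MDM4 and SUSD6, among the longest, were lower. MDM2, the longest at 12630 bases, shifted by only -0.18, and PERP, at 4290 bases, was higher in replicate 2 (0.44). The part of length in any single gene's shift was not tested. FPKM of p53 genes are therefore also compared within a replicate number above, where both libraries share the shift. The fits without a block, the counts of groups that did not overlap and the permutation p-values take no account of the number.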

How the data were processed

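The 6 libraries, 3 per group, come from 1 cell line. The deposited files give 1 FPKM value per gene to 2 decimals, per the file headers. Tools named in the submitters' processing notes are RSEM, Bowtie2 and Bowtie 0.12.2, with mm8 and mm10, which are mouse builds although the identifiers are human. For the human build, strand use and each tool's role, the answer is not given in the sources used here. Files were joined by Ensembl identifier; 40 rows with repeated identifiers were dropped, leaving 16574 genes, 16535 with a symbol.

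FPKM are not counts, so limma 3.58.1 (R 4.3.3; trend and robust) was run on log2(FPKM + 1) for genes of at least 1 FPKM in 3 libraries, with Benjamini-Hochberg adjustment over all genes. The scale understates changes of low genes. The script was tested on simulated data. In replicates 1 and 3 alone the same minimum left 11101 genes.

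Deviations from the group means of same-numbered libraries correlated at 0.738, 0.875 and 0.824 in replicates 1, 2 and 3. Since replicate 2 stood apart in both groups, its shift enters the deviations of replicates 1 and 3 too. High values for those numbers therefore do not show that they pair the libraries. Correlations between unlike numbers are not given here. The block in replicates 1 and 3 rests on the numbers in the labels alone. The genes, lists and the fits around replicate 2 were chosen with earlier results of these data known. The lists come from general knowledge. Genes were given library by library if MDM2 or MDM4, among the 5 highest in DMSO, called over all genes without the block, with it, or in replicates 1 and 3 alone, of 1 sign in all numbers with a mean difference of at least 0.25, or under the minimum; others served as examples of their role. Of other lists, up to 4 called members with the smallest p were named, or the 2 with the smallest p where fewer than 2 were called. CCNB2, TNFRSF10A, TNFRSF10C, TP63, TP73, CDKN1A, BAX, BBC3, PMAIP1 and CHAC1 were named outside that rule. One listed regulator and 1 listed NF-kB gene were not analysed here. Some results under that rule are not reported here.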

Additional observations from a re-analysis of the deposited data

How the results depend on the processing

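The call count of 0, over all genes and over the 23 p53 genes, held with pseudocounts of 0.1 and 5, without a filter, at a minimum of 5 FPKM, under both scalings, without limma's trend and robust options and with the replicate block (0 and 0 calls). Replicates 1 and 3 alone gave 741 genes and 1 p53 gene, or 3184 and 8 with the replicate block. Leaving out 1 library gave 0 to 1 genes (1 without BDE209 replicate 2). The median difference of the p53 genes was -0.0072 under median scaling, -0.0241 at a minimum of 5 FPKM and 0.0346 in replicates 1 and 3 with or without the block, and -0.0109 to 0.0724 with 1 library left out. TNFRSF10B stayed positive in all 16 alternatives (0.35 to 0.60). With 1 library left out, MDM4 ranged from -0.0236 to 0.2696 in the 3 of 6 fits where it kept 1 FPKM in 3 libraries, TP53I3 from -0.3455 to 0.0266 and PERP from -0.2725 to 0.1112. Without DMSO replicate 2, MDM4 (-0.0236), TP53I3 (0.0266) and PERP (0.0230) changed sign, as PERP did without BDE209 replicate 3 (0.1112). These fits had no block, and each left 1 replicate number with a library in only 1 group. Within the replicate numbers MDM4 was higher with BDE209 in all 3, TP53I3 was lower in all 3 and PERP was mixed. The cause of the sign changes was not tested. With settings chosen after seeing the data, the difference in effect between replicate 2 and the others was called for 0 genes without a filter and 153 without trend and robust options (0 p53 genes in both). It was called for 1 p53 gene under either scaling, a pseudocount of 5 or a minimum of 5 FPKM. At that minimum 13 of the 30 genes remained. The median DMSO percentile of the 30 was 41.03 among genes above 0 in any library and 42.08 to 42.75 with 1 DMSO library left out. Genes near 0 rest on few fragments.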
